A study of Caenorhabditis elegans with 10 samples.

Results

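The comparison set the genotype difference of PVD/OLL neurons, *mec-3(e1338)* minus wild type, against the same difference in whole animals of *Caenorhabditis elegans*. All 10 arrays of the series entered it, in 4 groups read from the sample titles: wild-type (N2) PVD/OLL with 3 arrays, *mec-3(e1338)* PVD/OLL with 3, wild-type whole animals with 2 and *mec-3(e1338)* whole animals with 2. Larvae of every group were at the L2/L3 stages and were grown at 25 °C on *E. coli* strain Na22. PVD/OLL RNA was poly(A) RNA bound to the poly(A) binding protein PAB-1, which carried a FLAG tag and was driven in both PVD and OLL by the *ser-2prom3B* promoter, so each of these samples mixes the RNA of both neuron types. Whole-animal RNA was total RNA of the lysate, with no pull-down. The labels do not say whether the whole animals carried the tag, and the *mec-3* mutation was present in the whole body in both kinds of sample.

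PVD neurons sense harsh touch and cold, and their dendrites form a regular tree under the skin. OLL neurons lie in the head, where they sense touch at the lips. MEC-3 is a transcription factor of the LIM homeodomain class, and it acts with the POU homeodomain factor UNC-86. Touch receptor neurons do not take their fate without it, and PVD dendrites of mutants lack their side branches. A gene that depends on *mec-3* in a few neurons can differ between genotypes in tagged RNA and hardly at all in RNA of the whole body. The question asked here was for which genes the genotype difference was unequal in the 2 kinds of sample.

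The quantity tested for each gene was the difference of differences: the PVD/OLL difference minus the whole-animal difference, in log2 units. A positive value means that *mec-3* stood higher against wild type in PVD/OLL than in whole animals. The deposited log2 values cover 18451 gene identifiers. Array medians were 6.51 to 6.77. The interquartile range of an array was 3.19 to 3.68 in PVD/OLL and 2.76 to 3.23 in whole animals, so the whole-animal values were spread less widely. Wild-type whole-animal replicate 2 had both the highest median and the narrowest range. The median SD of a gene between replicates came to 0.294 in PVD/OLL of wild type and 0.195 in that of *mec-3*, and to 0.26 and 0.2 in wild-type and *mec-3* whole animals. Rows are named by WormBase gene identifiers only, and the sources used here pair none of them with a name. No function is therefore given for any gene, the level of *mec-3* was not analysed here, and only 4 identifiers are printed, the 2 of lowest p in each direction.

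For most genes the genotype differences of PVD/OLL and whole animals were less than 4-fold apart, their interval included. The difference of differences had a median of -0.05 over all genes and lay between -1.02 and 0.88 for the central 90 percent of them. It reached 2-fold in 673 genes upward and 952 downward, 4-fold in 80 and 46, and 8-fold in 11 and 2. Its median SE was 0.39, and the median 95% interval reached 0.86 to either side. For 4989 genes (27.0%) the interval lay wholly inside a 2-fold difference, and for 16189 (87.7%) inside a 4-fold one. The interval lay wholly beyond 2-fold for 49 genes upward and 33 downward. These intervals are per gene and are not adjusted for the number of genes.

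A single gene passed the test (limma over all 10 arrays, Benjamini-Hochberg adjusted p under 0.05), which is 0.00542% of the genes tested. At an unadjusted p under 0.05 there were 1809 genes, 9.8% of all: 714 positive (3.87%) and 1095 negative (5.93%). These 1809 serve below to describe where the 2 kinds of sample were unlike, not as calls. As a view free of the variance model, each of the 9 differences between single *mec-3* and wild-type PVD/OLL arrays was set against each of the 4 between single whole-animal arrays. They did not overlap in 2141 genes (11.6%), 859 of them positive and 1282 negative, and in 1458 of the 1809. The single-array differences share arrays and are not independent.

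**Figure D1:**
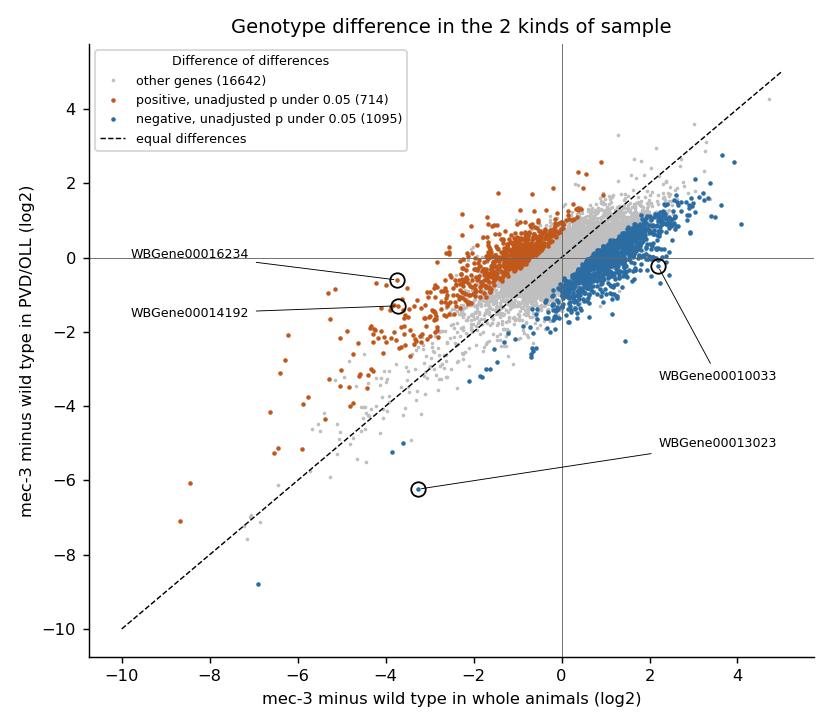
Each point is 1 of 18451 genes, with its *mec-3* minus wild-type difference in whole animals (x axis, log2) against that in PVD/OLL (y axis, log2). In colour are genes whose difference of differences had an unadjusted p under 0.05 (714 positive, 1095 negative), the dashed line marks equal differences, and circles mark the 4 genes described by array. Most coloured points lie farther from 0 along the x axis than along the y axis.

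WBGene00016234, the gene that passed, was brighter on average than 97.1% of genes. Its values were 11.48, 11.93 and 11.57 in wild-type PVD/OLL and 11.00, 10.98 and 11.18 in *mec-3* PVD/OLL. In whole animals they were 13.16 and 12.99 in wild type and 9.18 and 9.51 in *mec-3*. The groups did not overlap in either kind of sample, but the gap between genotypes was narrow in PVD/OLL and wide in whole animals, where the wild type held the highest values of the gene and the mutant the lowest. The fall in *mec-3* was 13.3-fold in whole animals (log2 difference -3.73, limma adjusted p = 0.0024, 4 arrays). In PVD/OLL the difference was -0.61, which did not pass (limma adjusted p = 0.115, 6 arrays). Here and below, fewer cells of a type and less RNA per cell cannot be told apart. Between them stood a difference of differences of 3.13 (SE 0.32, 95% interval 2.43 to 3.82, limma adjusted p = 0.0157). Every single-array difference in PVD/OLL (-0.95 to -0.30) lay above every one in whole animals (-3.98 to -3.48). Read across kinds, PVD/OLL minus whole animals was -1.42 (log2) for wild-type and 1.71 for mutant larvae. The adjusted p was 0.0251 when wild-type PVD/OLL replicate 2 was left out and 0.0270 when replicate 1 of the wild-type whole animals was. Without any other single array the call was lost, at 0.0624 to 0.170, while the value stayed at 2.96 to 3.29.

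WBGene00014192 had the next lowest p among positive genes. It measured 6.10, 5.90 and 5.94 in wild-type PVD/OLL, against 4.89, 4.40 and 4.75 in *mec-3*. Whole animals gave 8.16 and 8.14 in wild type and 4.64 and 4.24 in *mec-3*. The mutant values of both kinds overlapped in the dim part of the scale, and the kinds differed mainly in the wild type, where whole animals stood higher. The gene fell in both kinds, by 1.30 (log2) in PVD/OLL (limma adjusted p = 0.00761) and 13.1-fold in whole animals (limma adjusted p = 0.00252). For the difference of differences, 2.41 (SE 0.32), the limma adjusted p was 0.0714, which missed the threshold. Both mutant means lay under 4.99 (log2), below which 25% of all group means lie, and the part of such low values in the result was not tested.

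Among negative genes WBGene00010033 had the lowest p. Wild-type PVD/OLL arrays measured 10.50, 10.20 and 10.40 and *mec-3* PVD/OLL arrays 10.19, 10.34 and 9.89, so the genotypes overlapped. Whole animals measured 8.96 and 9.30 in wild type and 11.31 and 11.33 in *mec-3*. The rise in *mec-3* whole animals was 4.56-fold (log2 difference 2.19, limma adjusted p = 0.0121), against -0.23 in PVD/OLL (limma adjusted p = 0.564). PVD/OLL minus whole animals was thus 1.23 (log2) for wild-type and -1.19 for mutant larvae. The difference of differences was -2.42 (SE 0.31, limma adjusted p = 0.0714).

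The other negative gene, WBGene00013023, had its larger difference in PVD/OLL. Its values were 12.28, 11.07 and 11.56 in wild-type PVD/OLL and 5.26, 5.64 and 5.30 in *mec-3* PVD/OLL. In whole animals it measured 8.27 and 8.31 in wild type and 4.78 and 5.27 in *mec-3*. The mutant arrays of both kinds lay between 4.78 and 5.64, under every wild-type array, and wild-type PVD/OLL stood 3.34 (log2) above wild-type whole animals, while in *mec-3* that gap was 0.37. The gene fell 75.5-fold in PVD/OLL (log2 difference -6.24, limma adjusted p = 2.29e-05) and 9.63-fold in whole animals (log2 difference -3.27, limma adjusted p = 0.00403). Its difference of differences was -2.97 (SE 0.46, limma adjusted p = 0.111). The *mec-3* means, 5.40 in PVD/OLL and 5.02 in whole animals, lay close above the 4.99 (log2) used here for dim values. The part of such low values in the unequal falls was not tested.

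**Figure D2:**
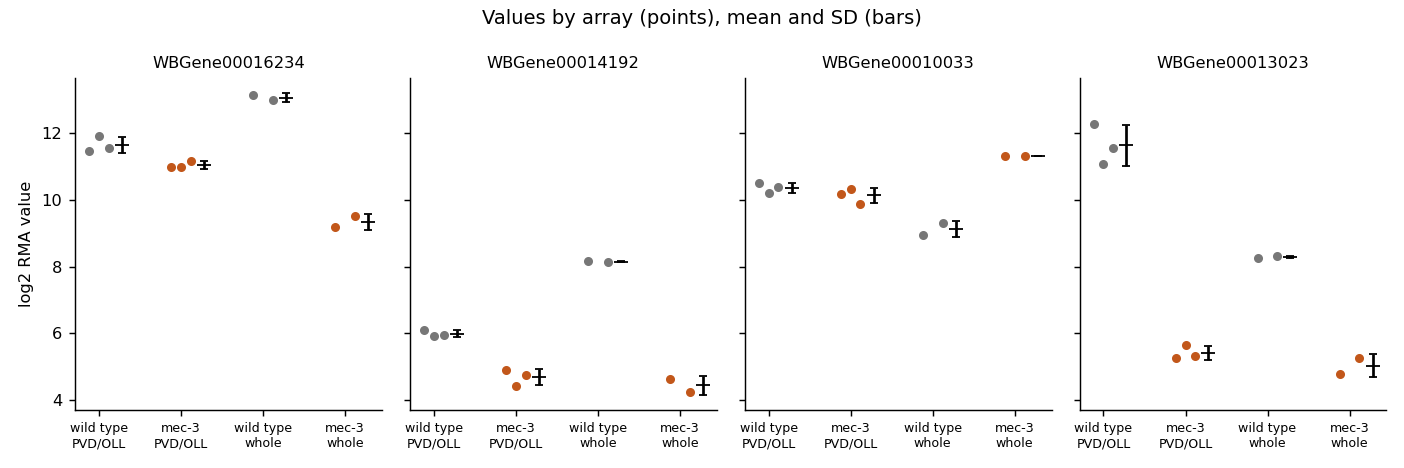
Log2 RMA values of the 4 genes on every array (points, grey for wild type and orange for *mec-3*), with the mean and SD of each group beside them (n = 3 for PVD/OLL, n = 2 for whole animals). WBGene00016234 fell from 13.08 to 9.35 in whole animals and from 11.66 to 11.06 in PVD/OLL, while WBGene00013023 fell from 11.64 to 5.40 in PVD/OLL and from 8.29 to 5.02 in whole animals.

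The 1809 genes were sorted by which kind of sample held the larger genotype difference and by its direction. In 1404 of them (77.6%) the whole-animal difference was the larger: 814 genes stood higher in *mec-3* and 590 lower. In 256 (14.2%) the PVD/OLL difference was the larger, with 184 genes lower and 72 higher in *mec-3*. The other 149 (8.24%) had differences of opposite sign, each at least 0.5 in size. Over all 18451 genes the whole-animal difference was the larger, outside the opposite-sign pattern, in 61.8%. The whole-animal difference rests on 2 arrays per genotype and the PVD/OLL difference on 3, and the part of this in the share was not tested. Leaving out replicate 1 of wild-type PVD/OLL took the share of 77.6% to 64.0%, and leaving out replicate 1 of the wild-type whole animals took it to 85.1%.

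The 814 genes higher in *mec-3* whole animals had the smaller difference in PVD/OLL by the sorting itself. Their median difference was 1.30 (log2) in whole animals and 0.17 in PVD/OLL, and 753 of them differed less than 2-fold in PVD/OLL. Small differences were common: in 16863 of all 18451 genes the mean of the 2 differences lay between -1 and 1. Counts under 2-fold, here and in the other patterns, are therefore a description. The median level rose from 7.78 in wild-type to 9.37 in *mec-3* whole animals, against 8.40 and 8.67 in PVD/OLL. The test within whole animals called 299 of them (36.7%), where it called 5.54% of all genes, and the test within PVD/OLL called 79 (9.71%), where it called 6.13% of all. Here and in the other patterns these tests share arrays with the choice of genes, so the shares are a description. WBGene00010033 belongs to this pattern.

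The 590 genes lower in *mec-3* whole animals had medians of -1.43 in whole animals and -0.17 in PVD/OLL. Median levels were 8.16 in wild-type and 6.28 in *mec-3* whole animals, and 6.99 and 6.36 in PVD/OLL. In 372 both differences had the same sign. WBGene00016234 and WBGene00014192 belong here, as does the widest difference of differences of the 1809, at 4.36. In 90 of the 590 (15.3%) both *mec-3* means were dim, under 4.99 (log2), the value below which 25% of all group means lie. The same held for 21.1% of all genes. In 79 of these 90 wild type stood above that line in at least 1 kind, as in 918 of the 3891 such genes of all. The 590 were chosen for a fall from wild type, so the count is a description.

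The 184 genes with a fall in PVD/OLL were sorted here because that difference was the larger. Of them 0 passed the adjusted test, and the lowest limma adjusted p was 0.111. Their median difference was -0.99 in PVD/OLL and 0.15 in whole animals. Median levels were 7.55 in wild-type and 6.14 in *mec-3* PVD/OLL, against 7.01 and 6.72 in whole animals. The test within PVD/OLL called 72 of them (39.1%, against 6.13% of all genes) and the test within whole animals 9 (4.89%, near the 5.54% of all genes). A 2-fold whole-animal difference was not reached in 170, but differences under 2-fold were common over all genes. In 58 both differences had the same sign, as in WBGene00013023, where the fall was deep in both kinds.

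The 72 genes with the larger rise in *mec-3* PVD/OLL were the smallest pattern. Their median difference was 0.72 in PVD/OLL and -0.16 in whole animals. All 72 stayed under 2-fold in whole animals, but differences under 2-fold were common over all genes. The test within PVD/OLL called 25 of them (34.7%, against 6.13% of all genes) and the test within whole animals 0 (against 5.54% of all genes). The lowest limma adjusted p of the difference of differences was 0.136, and its largest size was 2.07.

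The signs of the 2 differences were unlike in 817 of the 1809 genes (45.2%) and in 5792 of all genes (31.4%), but in most of these at least 1 of the differences was under 0.5 in size. Both were at least 0.5 in size and opposite in 204 of all genes, 149 of them among the 1809. In 97 of the 149 *mec-3* was lower in PVD/OLL and higher in whole animals, and in 52 the reverse. Both differences reached 2-fold in 9. The PVD/OLL test called 10 of the 149 (6.71%) and the whole-animal test 7 (4.70%), near the 6.13% and 5.54% of all genes, and 0 were called by both. The lowest limma adjusted p of the difference of differences was 0.149.

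**Figure D3:**
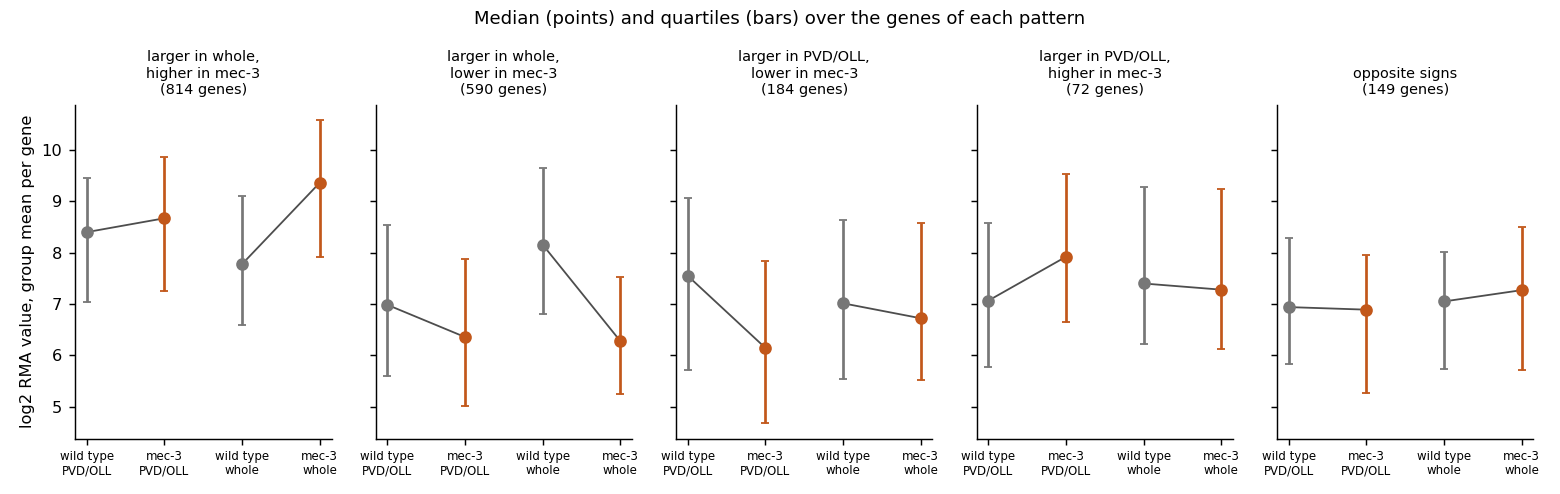
Median over genes (points) and quartiles (bars) of the group mean, in log2 RMA units, for the 5 patterns among the 1809 genes, with wild type in grey and *mec-3* in orange and lines joining the genotypes of 1 kind of sample. The patterns were defined by these values, so the slopes describe the choice: in the 814 genes the whole-animal median goes from 7.78 to 9.37 while the PVD/OLL median goes from 8.40 to 8.67.

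The same contrast can be read as the change in PVD/OLL enrichment between genotypes. Of the 1095 negative genes 614 (56.1%) lay above whole animals in wild-type PVD/OLL and below them in *mec-3*, as did 12.4% of all genes. A further 312 (28.5%) lay below in both genotypes and 169 (15.4%) above in both, against 52.8% and 26.6% of all genes. The negative genes had a median enrichment of 0.41 (log2) in wild-type and -0.74 in mutant larvae. Of the 714 positive genes 300 (42.0%) lay below whole animals in wild type and above them in *mec-3*, as did 8.08% of all genes. Another 321 (45.0%) lay below in both, against 52.8% of all genes. The median enrichment of the positive genes went from -1.12 in wild-type to 0.12 in mutant larvae. These counts use the arrays that chose the genes and are given as a description. The medians of the 1095 genes were 8.22 and 8.17 in wild-type and *mec-3* PVD/OLL but 7.57 and 8.86 in whole animals. The genotype medians thus stood farther apart in whole animals. These medians too come from the arrays that chose the genes, and the whole-animal difference rests on fewer arrays. The part of that was not tested.

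A call in PVD/OLL alone did not by itself mark an unequal difference. The test within PVD/OLL called 1131 genes (6.13%) and the test within whole animals 1023 (5.54%). These counts moved when an array was left out. Dropping replicate 1, 2 or 3 of wild-type PVD/OLL took the first to 1036, 721 or 959. For the mutant PVD/OLL arrays, in the same order, it became 494, 504 or 452. A fit with an array fewer also rests on less replication, and the part of that in the lower counts was not tested. The second count moved as well, and was 2481 with all 10 arrays in the fit. Which genes count as called in 1 kind alone thus depends on the fit. Dropping a whole-animal array leaves 1 array in a group, so such a fit cannot show what the dropped array did. The sets that follow rest on the counts with all arrays. Of the genes called by PVD/OLL alone, 294 were higher in *mec-3*, and their median was 1.02 in PVD/OLL and 1.04 in whole animals. The difference of differences had an unadjusted p under 0.05 in 29 of them (9.86%), near the 9.8% of all genes, and for 86 (29.3%) the 95% interval lay inside 2-fold. Another 317 were called lower by PVD/OLL alone, with medians of -1.26 and -0.87. Of these, 71 (22.4%) had an unadjusted p under 0.05, and the PVD/OLL difference was the larger in 68 of the 71. Both differences were at least 2-fold and in the same direction in 104 of the 317 lower and 93 of the 294 higher genes.

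Other genes were called in whole animals alone. The difference of differences had an unadjusted p under 0.05 in 224 of 310 higher genes (72.3%) and in 138 of 193 lower genes (71.5%). Their PVD/OLL medians of 0.62 and -0.67 had the direction of the whole-animal medians, 1.68 and -1.87, and the sign was shared in 287 of the 310 and 177 of the 193. The 95% interval lay inside 2-fold for 0 of the 310 and 0 of the 193. Among genes called alike by both tests, 116 of the 338 lower genes had an unadjusted p under 0.05 with the larger fall in whole animals and 9 with the larger fall in PVD/OLL. The corresponding counts for the 182 higher genes were 79 and 0. All these sets were chosen on arrays that also enter the difference of differences, so their shares are not independent evidence.

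The median genotype difference was smaller in PVD/OLL than in whole animals in every bin of genes past 2-fold. Genes were binned by the mean of their 2 differences, so both differences enter the choice of bin. The whole-animal difference rests on 2 arrays per genotype and the PVD/OLL difference on 3. A difference resting on fewer arrays can be pushed farther outward by this choice, and the part of that was not tested. In the 61 genes at or below -4 (log2) the median was -4.48 in PVD/OLL and -5.03 in whole animals. Between -4 and -2 (197 genes) it was -2.29 and -3.10, and between -2 and -1 (586 genes) -1.10 and -1.58. The 687 genes between 1 and 2 had medians of 0.92 and 1.61, and the 57 genes above 2 had 1.74 and 2.84. The whole-animal difference was the larger in 65.6% to 78.7% of the genes in the bins of falls and in 87.7% to 89.4% in the bins of rises. Among the 16863 genes between -1 and 1 the share was 60.7%. After quantile normalization across all arrays the median difference of differences was 0.37, 0.94 and 0.64 in the bins of falls and -0.64 and -0.80 in those of rises, against 0.32, 0.85, 0.49, -0.70 and -0.92 as deposited. When the narrower whole-animal arrays were stretched to the interquartile range of PVD/OLL, the inequality widened to 1.61, 1.38, 0.82, -0.82 and -1.28. Stretching widens the whole-animal scale by construction and leaves PVD/OLL as deposited, so this widening is no check of the inequality. Each whole-animal array was stretched by its own interquartile range, which was 3.10 and 2.76 in wild type and 3.10 and 3.23 in *mec-3*. The stretch was therefore unequal between genotypes, and the part of that in these values was not tested. Pull-down, kind of RNA and cell type differ together between the 2 kinds of sample and cannot be told apart. An effect of these that adds the same amount to both genotypes cancels in the difference of differences, whereas one that compresses large differences does not. Neither kind of effect was tested.

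**Figure D4:**
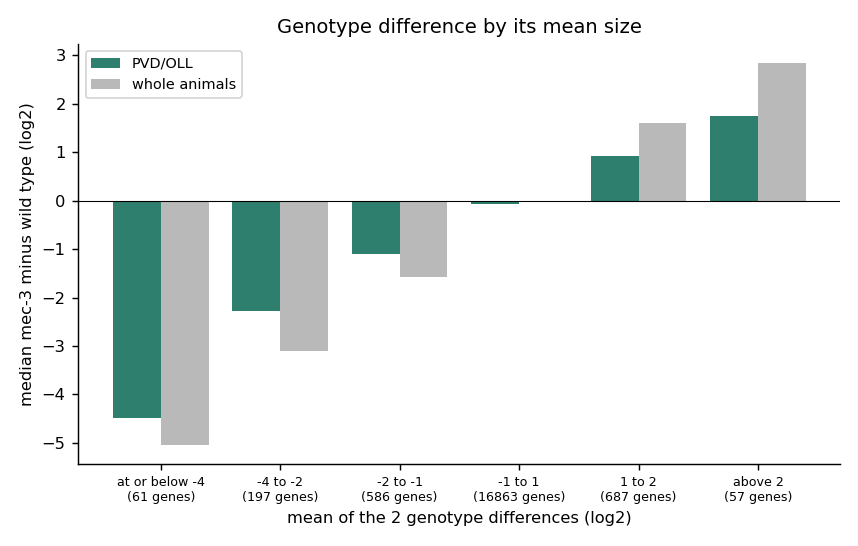
Median *mec-3* minus wild-type difference (log2) in PVD/OLL (green bars) and whole animals (grey bars) for genes binned by the mean of the 2 differences, with the number of genes under each bin. In the outer bins the grey bar is longer, for example -3.10 against -2.29 between -4 and -2, and 2.84 against 1.74 above 2.

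The difference of differences shifted with the level of the gene. In the brightest 10% of genes its median was -0.25, from a median genotype difference of 0.17 in PVD/OLL and 0.42 in whole animals. In the next 10% it was -0.15, and in the other 8 bins of equal size it lay between -0.06 and 0.04. Genes at an unadjusted p under 0.05 made up 2.87% of the dimmest bin and 16.5% of the brightest, where 247 were negative and 58 positive. In bin 4 from the dim end 72 were negative and 104 positive. This shift depended on the scaling. The median of the brightest 10% was -0.22 with arrays centred on their medians, -0.07 after quantile normalization across all arrays and -0.09 after quantile normalization within each kind. It turned to 0.08 when the whole-animal arrays were stretched, each by its own factor, which was unequal between genotypes. The split of the 1809 genes, 714 positive to 1095 negative, likewise became 992 to 962 and 961 to 939 after the 2 quantile normalizations and 1100 to 1148 after stretching, so the excess of negative genes was not independent of the scaling.

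**Figure D5:**
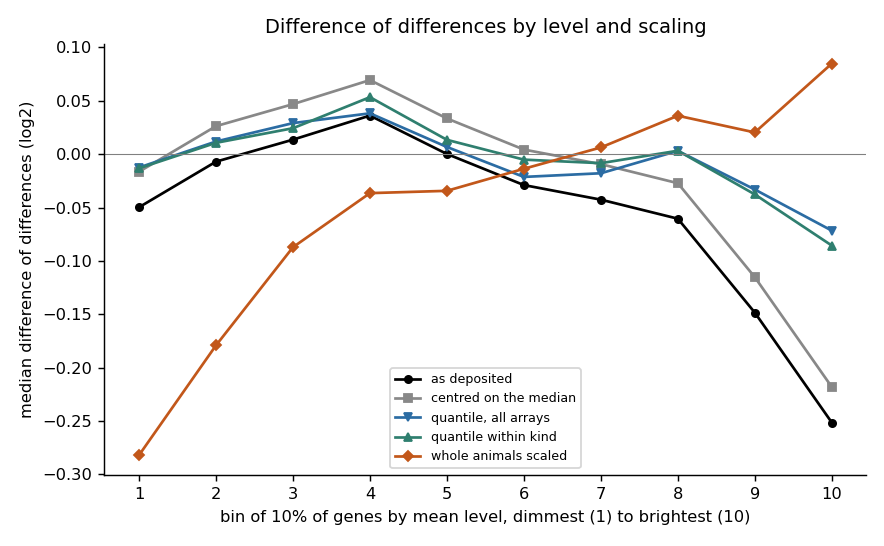
Median difference of differences (log2, y axis) in 10 bins of genes by mean level over the 10 arrays (x axis, 1845 or 1846 genes each), for the values as deposited and 4 other scalings. As deposited the line falls to -0.25 in the brightest bin, the quantile lines end at -0.07 and -0.09, and the line with stretched whole-animal arrays ends at 0.08.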

How the data were processed

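RNA of 10 samples was measured on Affymetrix *C. elegans* tiling arrays, after amplification with NuGEN kits per the labels' protocols. The deposited values are log2 expression, 1 per gene identifier and array; the authors made them with RMA, per the submitters' processing notes, and the log2 scale was read from the values. The sources used here do not give the gene models, the genome build or any filter. The reference table (46926 rows, WBcel235) matched 0 of 18451 identifiers, so *mec-3* and the planned gene lists were not analysed here.

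Linear models with a mean per group were fitted to all 18451 rows, unfiltered, in R 4.3.3 with limma 3.58.1 (lmFit, eBayes). Tests were two-sided, and p was adjusted over all rows by Benjamini-Hochberg. The difference of differences used 10 arrays, the genotype differences the 6 PVD/OLL or the 4 whole-animal arrays. Precision is limited by how many arrays each group has. The titles call the samples biological replicates. Replicate numbers were not taken as pairs: deviations of same-numbered wild-type and *mec-3* arrays of the same kind correlated at -0.06 to 0.05. In whole animals both replicate numbers gave 0.047, because the deviations in each group mirror each other, so this is a single value. Same-numbered PVD/OLL and whole-animal arrays were not compared, so pairing across kinds was not tested. The fit was tested on simulated data.

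Printed genes are the 2 of lowest p in each direction among those whose highest group mean reached the median of all values (6.63). The comparison, rule and lists were chosen with earlier results of these data known. Alternatives were other scalings, filters, priors, array weights, a replicate block and leaving out each array.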

Additional observations from a re-analysis of the deposited data

Results flagged for a closer look

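WBGene00016234 stood out because its genotype difference was unequal in the 2 kinds of sample by the test of that inequality itself: the 2 differed by 3.13 (log2, SE 0.32, limma adjusted p = 0.0157). All 9 single-array differences in PVD/OLL lay above all 4 in whole animals. These share arrays, and such differences did not overlap in 11.6% of all genes and 80.6% of the 1809 genes at an unadjusted p under 0.05. The separation is therefore a description. Over the 19 alternatives run its value ranged from 2.96 to 4.15 and its limma adjusted p from 0.00318 to 0.170.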

How the results depend on the processing

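The count of 1 gene past the adjusted threshold of the difference of differences was the least stable value. It was 5 at an adjusted p under 0.10, 2 after quantile normalization across all arrays, 3 after quantile normalization within each kind, 8 without the dimmest 50% of genes, 2 with an intensity trend and robust prior, 0 with a replicate block (1820 genes at an unadjusted p under 0.05, limma adjusted p = 0.106 for WBGene00016234) and 19 with whole-animal arrays stretched to the interquartile range of PVD/OLL. With each array left out it was 0 to 16. The 1809 genes at an unadjusted p under 0.05 became 1341 to 2616 over the arrays left out. Signs of the 4 printed genes were kept in every alternative run. WBGene00014192 was removed by the filter of 50%, and passed after both quantile normalizations and stretching (limma adjusted p = 0.00803, 0.0379 and 0.00981). WBGene00010033 passed with the filter of 50%, the trend and stretching (0.0301, 0.0367 and 0.0484), and WBGene00013023 with the filter of 50% and without wild-type PVD/OLL replicate 2 (0.0476 and 0.0496). The median difference of differences of the brightest 10% of genes turned from -0.25 to 0.084 on stretching. Within PVD/OLL the count of 1131 was 1806 with array weights and 452 to 1036 with an array left out. Within whole animals the count of 1023 was 1591 without the dimmest 50%, 2481 with all 10 arrays in the fit and 153 to 1591 with an array left out. Splits that moved with the scaling were 476 higher to 655 lower genes in PVD/OLL, 709 to 583 after centring, and 492 to 531 in whole animals, 271 to 447 after quantile normalization across all arrays. The cause of these changes was not tested. The alternatives for medians, for shares, and stretching for single genes were added after the data were seen.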
